A study of Homo sapiens with 6 samples.

Results

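The endoplasmic reticulum (ER) is the main calcium store of most cells. SERCA pumps in its membrane move calcium from the cytosol into the lumen, inositol trisphosphate (IP3) receptors let it out again, and luminal proteins bind it in between. Chaperones and disulphide-forming enzymes of this compartment need calcium to work, and the loss of luminal calcium is a textbook trigger of the unfolded protein response. Nucleobindins and the CREC proteins (calumenin, Cab45 and the reticulocalbins) are EF-hand calcium binders of the ER, the Golgi or both.

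The 10 genes described here are the pumps ATP2A2 and ATP2A3, the release channels ITPR1, ITPR2 and ITPR3, and the luminal calcium binders NUCB1, NUCB2, CALU, SDF4 and RCN1. They were found by symbol in GENCODE 29 among the 58051 gene IDs of the count table. All 10 had a row and all 10 passed the filter on low counts. They were picked by role with earlier results of the same contrast known, so their values are given as a description: their calls are counted, but no p-value of theirs is printed and nothing is supported by them. The cells were OE33, an established line of human oesophageal adenocarcinoma, either left untreated or exposed to 15 µM APX2009, a small-molecule inhibitor of the redox function of APE1, for 24 h, with 3 independent biological replicates each. No vehicle is named for the untreated cultures. Levels are CPM, read counts relative to library size with TMM scaling, and changes are log2 changes from edgeR with their standard errors (SE).

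Promoter windows from RefSeq (GRCh38.p14; 250 bases before the transcription start and 50 from it on) were found for 8 of the 10 genes, in 10 windows because NUCB2 and ATP2A2 have more than 1 start; ATP2A3 and ITPR2 had no entry. The windows of the 4 luminal binders and pumps that were at least 1.5-fold higher after treatment are shown, with NUCB2 at the first of its starts and ATP2A2 at the second, where a CCAAT match falls. Capitals mark matches, on either strand, to CCAAT (the box bound by NF-Y), to CCACG (the ATF6 part of ER stress elements), to ER stress element II (ATTGG, 1 base and CCACG, so that it holds both of these) and to TGACNNNGC (the core of the antioxidant response element).
NUCB1 (chr19:48900062-48900361, plus strand): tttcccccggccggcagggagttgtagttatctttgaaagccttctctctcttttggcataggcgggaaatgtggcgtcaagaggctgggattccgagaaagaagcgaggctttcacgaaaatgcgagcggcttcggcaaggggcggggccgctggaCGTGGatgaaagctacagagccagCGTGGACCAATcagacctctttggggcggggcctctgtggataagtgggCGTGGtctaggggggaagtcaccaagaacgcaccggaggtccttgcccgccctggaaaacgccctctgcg
NUCB2 (chr11:17276489-17276788, plus strand): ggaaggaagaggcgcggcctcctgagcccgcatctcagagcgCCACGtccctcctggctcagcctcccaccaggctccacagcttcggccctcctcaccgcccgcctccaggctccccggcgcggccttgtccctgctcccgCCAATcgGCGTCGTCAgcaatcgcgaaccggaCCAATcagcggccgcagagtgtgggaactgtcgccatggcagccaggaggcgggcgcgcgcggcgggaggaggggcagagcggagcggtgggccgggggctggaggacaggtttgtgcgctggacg
ATP2A2 (chr12:110280997-110281296, plus strand): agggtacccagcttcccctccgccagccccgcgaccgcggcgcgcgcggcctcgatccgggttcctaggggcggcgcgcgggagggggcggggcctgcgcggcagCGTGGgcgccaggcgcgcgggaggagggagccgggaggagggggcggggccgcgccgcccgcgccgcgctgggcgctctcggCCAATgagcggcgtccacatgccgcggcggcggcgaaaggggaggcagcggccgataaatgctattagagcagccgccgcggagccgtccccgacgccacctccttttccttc
CALU (chr7:128739109-128739408, plus strand): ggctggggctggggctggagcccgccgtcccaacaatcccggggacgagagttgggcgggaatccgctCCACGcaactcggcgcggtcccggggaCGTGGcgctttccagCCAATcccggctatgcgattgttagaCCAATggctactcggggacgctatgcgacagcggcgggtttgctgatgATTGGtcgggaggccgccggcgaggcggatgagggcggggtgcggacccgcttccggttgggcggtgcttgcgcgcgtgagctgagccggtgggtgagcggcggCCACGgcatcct

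The NUCB1 window holds 1 full match to ER stress element II on its minus strand, which starts 69 bases before the transcription start. Of 35116 promoter windows of the same length, 19 hold that motif (0.0541%). No member window matched the original ER stress element, in which 9 bases part CCAAT from CCACG (0.0769% of all windows), TGACGTGG (0.729%) or TGATGNAA, a C/EBP-ATF composite site (3.62%). CCAAT was found in 6 of the 10 windows and CCACG in 7, against 34.6% and 38.1% of all windows. The shorter motifs are parts of the longer ones, so these counts overlap. Windows that are not shown held them too: those of SDF4 and RCN1, with log2 changes of only 0.24 and 0.17, held both CCAAT and CCACG. The window of ITPR1 (log2 change 1.77), also not shown, held CCACG without CCAAT, and the first window of ATP2A2 held neither. TGACNNNGC was found on the minus strand of the NUCB2 window shown, 101 bases before the start, and in the first window of ATP2A2, against 13.3% of all windows. The printed windows had GC contents from 59.7% (NUCB1) to 78.0% (ATP2A2), with a median of 58.7% over all windows. A match describes letters in the window and does not show that a factor binds there.

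The libraries held 21158750 to 26111656 gene counts, and spike-in transcripts (ERCC) made up 0.315% to 0.752% of all counts. APX2009 replicate 1 stood apart. It had the most detected genes (25015, against 21845 to 22446 in the other 5 libraries) and the lowest ERCC share. It also held transcripts of heart muscle: a list of 20 such genes, written after values had been seen, summed to 110.0 CPM there and to 4.53 to 7.38 CPM elsewhere. Of the 20, 19 were highest in that library and TNNC1 was not. MYH7, the slow and cardiac myosin heavy chain, reached 33.4 CPM against at most 0.0479 in any other library. Because heart muscle is rich in SERCA2, its regulator and the cardiac release channel, the log2 changes of the 10 genes are given with and without this library. The 8 epithelial markers were all detected, with a sum of 26489 to 27167 CPM untreated and 15008 to 18662 CPM treated, led by KRT19. Of the 8, 4 fell, against 17.4% of all genes tested. These were KRT8, KRT19, KRT18 and CDH1, with log2 changes of -1.08, -0.72, -0.43 and -0.38. The markers ELF3, CLDN4 and CLDN7 were not called (log2 changes -0.01, -0.07 and 0.16). EPCAM was not called either, with means of 447.1 CPM untreated and 446.3 CPM treated. Fibroblast markers summed to 8.35 to 12.7 CPM in untreated and 9.11 to 19.2 CPM in treated libraries, mainly COL1A1. Of the other fibroblast markers, COL3A1, DCN and COL1A2 had 48, 42 and 26 reads in APX2009 replicate 1 and 0 in each of the other 5 libraries. Endothelial markers summed to 0.0445 to 0.402 CPM untreated and 0.0889 to 2.02 CPM treated, and VWF, the most abundant, had 36 reads in APX2009 replicate 1 against 1 to 8 elsewhere. Stromal and endothelial transcripts thus marked the same library as the heart muscle ones. Leukocyte markers summed to 1.51 to 2.15 CPM untreated and 2.92 to 4.38 CPM treated, with CD3E at 0 in all libraries. CD68, a lysosomal protein of macrophages and the only leukocyte marker tested, rose in all 3 treated libraries, from 1.34, 1.85 and 0.979 CPM to 3.89, 2.93 and 2.68 CPM (log2 change 1.19 ± 0.25, edgeR adjusted p = 0.00513). ITGAM, a leukocyte marker below the filter on low counts, did not rise, with 18, 5 and 12 reads untreated and 6, 5 and 5 treated. PTPRC, also below the filter, had 6 reads in APX2009 replicate 1 and 0 elsewhere. The part of these marker changes in the values of the calcium genes was not tested.

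Of the 10 genes, 6 were called higher and 1 lower at an edgeR adjusted p under 0.05, and 3 were not called. Over all 14773 genes tested the same rule called 34.7%, with 17.2% higher and 17.4% lower. Untreated and treated values did not overlap in 8 of the 10, against 49.4% of all genes tested. The median log2 change was 0.45 for the 10 and 0.02 for all genes. Since the genes were chosen with these values in view, nothing is read from those shares. In bulk RNA, a change in the share of cells that carry a transcript and a change in its level per cell cannot be told apart.

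**Figure D1:**
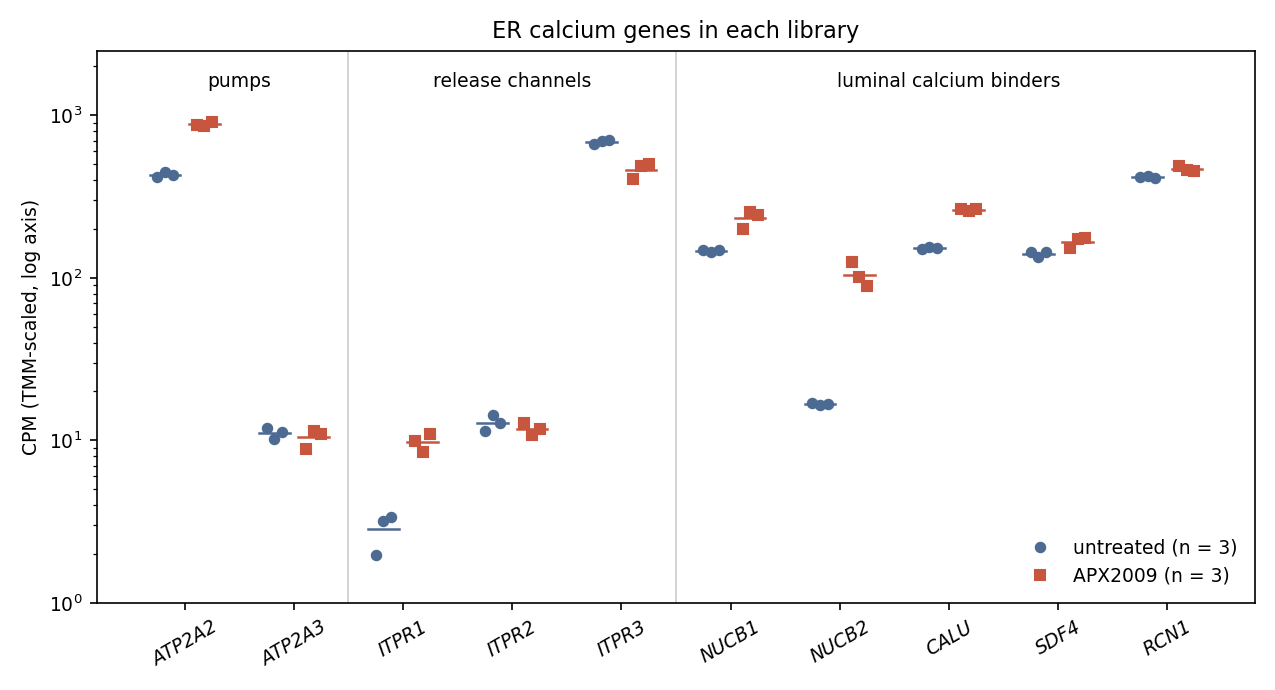
CPM on a log axis for each of the 10 genes, with 1 point per library (circles untreated, squares APX2009) and a line at each group's mean. NUCB2 moved from about 16.7 to 104.9 CPM, ATP2A2 from 431.0 to 881.6 CPM, and ITPR3 from 688.2 to 464.5 CPM, while the points of ATP2A3 and ITPR2 overlap between groups.

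Pumps come first. ATP2A2 encodes SERCA2, the pump that fills the ER of nearly all cells (ENSG00000174437, chromosome 12, 110280756 to 110351093, plus strand). Its level was 417.1, 445.5 and 430.4 CPM in the untreated libraries and 870.6, 861.7 and 912.4 CPM in the treated ones. Every treated library lay far above every untreated one. The difference was 1.03 ± 0.07 (SE) on the log2 scale, or 2.05-fold. APX2009 replicate 1, the library with heart transcripts, was neither the highest nor the lowest treated value, and without it the log2 change was 1.04 ± 0.05.

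ATP2A3 encodes SERCA3, a pump of lower calcium affinity found in epithelial and blood cells (ENSG00000074370, chromosome 17, 3923870 to 3964464, minus strand). It stood at 11.9, 10.2 and 11.2 CPM in untreated and 8.88, 11.5 and 10.9 CPM in treated cells, so the groups overlapped. Its log2 change of -0.09 ± 0.13 turned to 0.01 ± 0.11 without APX2009 replicate 1, and it was not called either way. ATP2A1, the SERCA of fast skeletal muscle, was also measured, with a mean of 3.09 ± 0.483 CPM without and 2.58 ± 0.957 CPM with APX2009 (SD, n = 3), and did not pass the test (log2 change -0.25 ± 0.26, edgeR adjusted p = 0.502). Per length of exon, ATP2A2 made up 93.2% ± 0.808 of the SERCA transcripts in untreated and 96.9% ± 0.0188 in treated cells (SD, n = 3). The share of ATP2A3 was 5.26%, 4.31% and 4.83% before and 1.97%, 2.57% and 2.31% after. The summed SERCA level per length went from 33.6 ± 0.823 to 66.2 ± 2.03 RPKM (CPM per kilobase of exon).

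The release channels did not move together. ITPR3, the IP3 receptor that predominates in these cells (ENSG00000096433, chromosome 6, 33620365 to 33696574, plus strand), was at 664.6, 695.2 and 704.6 CPM in untreated and 406.1, 488.5 and 498.8 CPM in treated libraries. Every treated value lay below every untreated one, and APX2009 replicate 1 was the lowest. The log2 change was -0.57 ± 0.09, and -0.48 ± 0.05 without that library. About 10.4% of the exon bases of ITPR3 are also exon bases of UQCC2 on the other strand, and the strand setting of the counting is not given in the sources used here.

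ITPR1 encodes the IP3 receptor best known from neurons (ENSG00000150995, chromosome 3, 4493345 to 4847840, plus strand). It was scarce in untreated cells, with 44, 79 and 76 reads (1.97, 3.17 and 3.38 CPM), and reached 263, 190 and 228 reads (9.85, 8.44 and 10.9 CPM) after treatment. The groups were well apart despite the low counts. This came to a log2 change of 1.77 ± 0.20, or 3.42-fold, and 1.76 ± 0.20 without APX2009 replicate 1. ITPR2, a high-affinity IP3 receptor of secretory cells (ENSG00000123104, chromosome 12, 26336515 to 26833198, minus strand), was at 11.5, 14.3 and 12.8 CPM in untreated and 12.8, 10.8 and 11.8 CPM in treated cells. These values overlapped, and the log2 change was -0.12 ± 0.12 (-0.19 ± 0.12 without APX2009 replicate 1).

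Per length, ITPR3 made up 98.5% ± 0.147 of the IP3 receptor transcripts in untreated and 97.4% ± 0.464 in treated cells (SD, n = 3). ITPR1 accounted for 0.0887%, 0.136% and 0.144% before and 0.715%, 0.514% and 0.65% after. The higher ITPR1 level therefore added little to the sum, which went from 70.8 ± 2.22 to 48.3 ± 5.09 RPKM. In RPKM, the summed SERCA level was below the summed IP3 receptor level in each untreated library (32.8 to 34.4 against 68.3 to 72.5). It was above it in each treated one (64.7 to 68.5 against 42.5 to 51.8). Which sum is larger depends on the annotated exon lengths, 13745 bases for ATP2A2, 9870 for ITPR3 and 32454 for ITPR1. Other lengths were not tried.

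**Figure D2:**
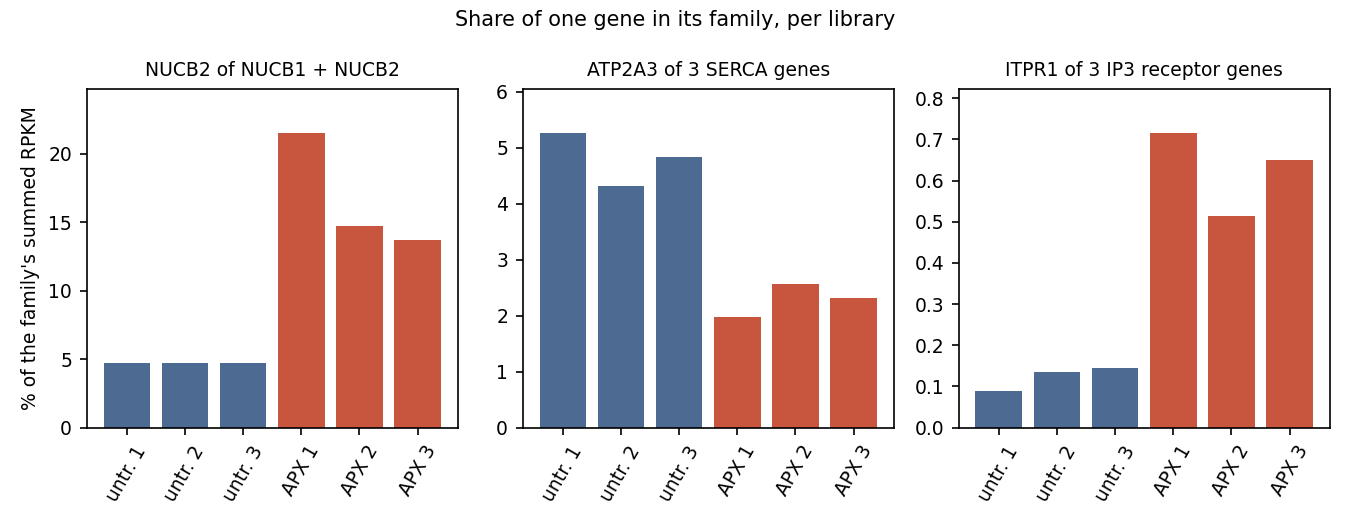
Share of 1 gene in the summed RPKM of its family, 1 bar per library, linear axes from 0. Lengths are the union of all annotated exons, so the shares depend on the annotation. NUCB2 held 4.70% to 4.75% of the nucleobindin transcripts in untreated and 13.7% to 21.5% in treated libraries, ATP2A3 held 4.31% to 5.26% and then 1.97% to 2.57% of the SERCA transcripts, and ITPR1 stayed under 1% of the IP3 receptors.

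Among the luminal binders, NUCB2 stood out by size. NUCB2 encodes nucleobindin-2, a calcium- and DNA-binding protein of the Golgi and secretory pathway and the precursor of the secreted peptide nesfatin-1 (ENSG00000070081, chromosome 11, 17208153 to 17349980, plus strand). It was at 16.9, 16.4 and 16.7 CPM in the untreated libraries and at 125.3, 100.8 and 88.6 CPM in the treated ones. The groups lay far apart, and the treated libraries differed among themselves more than the untreated ones did. On the log2 scale the change was 2.65 ± 0.12, or 6.30-fold, which ranked 66 from the top among the 14773 genes tested; by comparison 2.94% of those genes were called and at least 2-fold higher. The highest treated value belonged to APX2009 replicate 1, and without that library the log2 change was 2.5 ± 0.07. What part the heart transcripts had in that one value was not tested.

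NUCB1 encodes nucleobindin-1, a Golgi calcium store protein (ENSG00000104805, chromosome 19, 48900050 to 48923372, plus strand). It was at 147.9, 145.0 and 147.6 CPM in untreated and 199.2, 254.3 and 243.8 CPM in treated libraries. All treated values exceeded the untreated ones, and APX2009 replicate 1 was here the lowest of the treated. The log2 change was 0.66 ± 0.09, and 0.76 ± 0.05 without that library. The summed nucleobindin level went from 39.1 ± 0.422 to 70.7 ± 5.71 RPKM (SD, n = 3). In RPKM, NUCB1 still made up 83.3% ± 4.26 of it after treatment. That share depends on the annotated exon lengths, 3937 bases for NUCB1 and 9025 for NUCB2. In CPM, which is not divided by length, the treated means were 232.4 for NUCB1 and 104.9 for NUCB2.

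CALU encodes calumenin, an EF-hand protein of the ER and Golgi that also restrains vitamin K-dependent carboxylation (ENSG00000128595, chromosome 7, 128739292 to 128771807, plus strand). It was at 150.4, 154.9 and 151.9 CPM in untreated and 265.5, 256.4 and 263.6 CPM in treated cells. The spread within each group was small beside the gap between them. Its log2 change was 0.78 ± 0.06, or 1.72-fold, and 0.77 ± 0.05 without APX2009 replicate 1.

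SDF4 encodes Cab45, which binds calcium in the Golgi lumen and sorts secreted cargo (ENSG00000078808, chromosome 1, 1216908 to 1232031, minus strand). It was at 144.0, 134.0 and 144.2 CPM in untreated and 151.9, 172.8 and 174.8 CPM in treated libraries. The groups did not overlap, but APX2009 replicate 1 lay close to the untreated range. The log2 change of 0.24 ± 0.07 was called with all 6 libraries, and not when untreated replicate 2 or 3 or APX2009 replicate 2 or 3 was left out (log2 changes from 0.21 to 0.26). Without APX2009 replicate 1 it was 0.30 ± 0.05 and called. RCN1 encodes reticulocalbin-1, a CREC protein of the ER lumen (ENSG00000049449, chromosome 11, 32090904 to 32105755, plus strand). It was at 416.3, 424.2 and 410.7 CPM in untreated and 487.8, 464.5 and 456.0 CPM in treated cells, without overlap. The log2 change was small, 0.17 ± 0.06, and was called only when APX2009 replicate 1 was left out among the single-library omissions (0.14 ± 0.05). On the same strand, 935 of the 4675 exon bases of RCN1 are shared with the gene model AL035078.4, so its counts are uncertain.

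The CREC genes differed in size of change. Per length, RCN1 made up 56.4% ± 0.739 of CALU, SDF4, RCN1, RCN2 and RCN3 together in untreated and 50.2% ± 1.30 in treated cells, while CALU made up 21.2% ± 0.294 and 28.8% ± 0.407 (SD, n = 3). RCN2, a reticulocalbin outside the 10, rose by 0.27 ± 0.07 on the log2 scale (edgeR adjusted p = 0.0142). RCN3 was below the filter on low counts. The summed CREC level went from 158.2 ± 0.568 to 200.1 ± 1.90 RPKM.

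Ordered by RPKM in untreated cells, RCN1 (89.2 ± 1.46) and ITPR3 (69.7 ± 2.12) led. NUCB1 (37.3 ± 0.398), CALU (33.6 ± 0.502), ATP2A2 (31.4 ± 1.03) and SDF4 (29.9 ± 1.24) formed a middle group, in which ATP2A2 and SDF4 overlapped. NUCB2 (1.85 ± 0.0262), ATP2A3 (1.61 ± 0.120), ITPR2 (1.01 ± 0.110) and ITPR1 (0.0875 ± 0.0235) were far below. After treatment RCN1 still led at 100.4 ± 3.52 RPKM. ATP2A2 (64.1 ± 1.97), NUCB1 (59.0 ± 7.43) and CALU (57.7 ± 1.05) followed, and neighbours among these 3 overlapped. ITPR3 (47.1 ± 5.15) had dropped below them, above SDF4 (35.4 ± 2.70). NUCB2 (11.6 ± 2.07) had moved well clear of ATP2A3, ITPR2 and ITPR1, which stood at 1.51 ± 0.198, 0.927 ± 0.0802 and 0.300 ± 0.0383 RPKM. Lengths are the union of all annotated exons, so a gene with many unused exons reads low on this scale.

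By pattern over the 6 libraries, the 5 protein-coding genes most like NUCB2 were ERO1B, CRELD2, AGR2, MANF and GCLC. Likeness was the root mean square difference in log2 CPM after each gene's own mean was removed, taken over 9498 other genes that averaged 3 or more in log2 CPM, and it came to 0.113 for ERO1B and 0.190 for GCLC. ERO1B, an oxidase that drives disulphide formation in the ER, was at 3.93, 3.61 and 3.92 CPM in untreated and 34.7, 27.3 and 23.1 CPM in treated libraries, with the treated libraries in the same order as for NUCB2. CRELD2 and AGR2, ER proteins of folding and disulphide exchange, shared that order (194.9, 181.6 and 172.0 CPM and 309.6, 286.5 and 269.9 CPM after treatment). MANF, a secreted ER stress protein, and GCLC, an enzyme of glutathione synthesis, had treated values that did not follow it. A measure over 3 treated and 3 untreated libraries mostly reflects the size of the gap between the groups. The genes were picked by likeness over these same libraries, so a shared order of the treated ones is partly built in. ERO1B reached the minimum average of 3 only through its treated values.

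**Figure D3:**
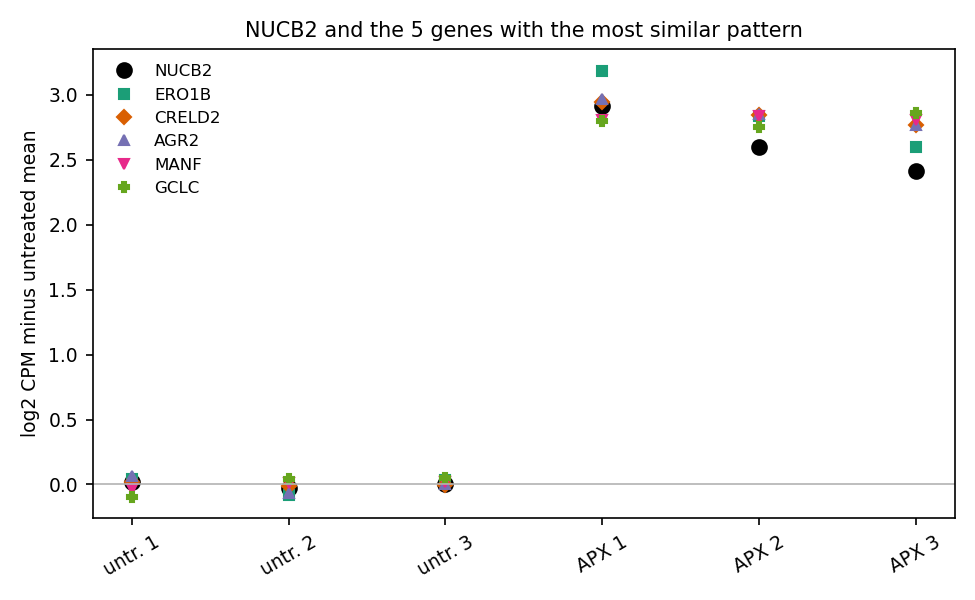
log2 CPM of NUCB2 and of the 5 genes most like it, minus each gene's untreated mean, for the 6 libraries. Untreated points lie close to 0 and treated points far above; NUCB2, ERO1B, CRELD2 and AGR2 are highest in APX2009 replicate 1 and lowest in replicate 3.

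Beyond the 10, 118 other calcium genes in 10 lists by role were looked up, of which 101 were tested. Of these, 28 rose and 17 fell, or 27.7% and 16.8% of those tested, against 17.2% and 17.4% over all genes. Their median log2 change was 0.04. Without APX2009 replicate 1 the counts were 32 and 18, and the genes named by the rule of smallest p in each list kept their direction and their side of the threshold. That does not mean each kept its size: RYR2, not called either way, went from a log2 change of 2.62 to 0.06. The lists were written with earlier results of these data known.

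Of the luminal calcium binders outside the 10, 8 of 12 tested rose and 3 fell (66.7% and 25.0%, against 17.2% and 17.4% of all genes). The 3 lower ones, picked for mention after their values were seen, were FKBP9, FKBP10 and CGREF1 (log2 changes -0.63, -0.47 and -0.48). FKBP9 and FKBP10 encode ER prolyl isomerases with EF hands. FKBP14 of the same list, also picked after its value was seen, went the other way (1.23 ± 0.08, edgeR adjusted p = 3.88e-06). The abundant calcium-binding chaperones led by p. CALR, calreticulin, the main calcium buffer of the ER, was 4.49-fold higher and reached 1868 CPM (log2 change 2.17 ± 0.07, edgeR adjusted p = 2.08e-08). HSPA5, the HSP70 chaperone of the ER, went from 939.3 to 3647.8 CPM (1.96 ± 0.06, edgeR adjusted p = 3.62e-08), and HSP90B1, its HSP90 chaperone, from 688.7 to 2423.1 CPM (1.81 ± 0.08, edgeR adjusted p = 3.39e-07). NUCB2 thus lay above these by log2 change and far below them by level, at 11.6 RPKM after treatment against 516.1 (HSP90B1) to 933.4 (HSPA5). All 3 ER retrieval receptors, which return proteins with a C-terminal KDEL-like signal from the Golgi, rose: KDELR2 by 0.61 ± 0.06, KDELR3 by 0.50 ± 0.11 and KDELR1 by 0.41 ± 0.06 on the log2 scale (edgeR adjusted p = 5.07e-05, 0.00489 and 0.000442).

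Regulators of the IP3 receptors split, with 3 of 13 higher and 4 lower (23.1% and 30.8%, against 17.2% and 17.4% of all genes). ERP44, a thiol protein of the ER lumen that binds ITPR1 and inhibits it, rose 2.16-fold, from 45.6 to 98.3 CPM (log2 change 1.11 ± 0.06, edgeR adjusted p = 1.19e-06). CISD2, an iron-sulphur protein of the ER membrane, rose by 0.88 ± 0.11 (edgeR adjusted p = 0.000212), and AHCYL1, known as IRBIT, which competes with IP3 for the receptor, by 0.41 ± 0.06 (edgeR adjusted p = 0.000464). ITPR1 and these 3 regulators were thus higher while ITPR3 was lower. Among enzymes that make or remove IP3, 2 of 13 rose and 4 fell (15.4% and 30.8%, beside the same shares of all genes). The phospholipase genes PLCD3 and PLCB3 fell by 0.78 ± 0.08 and 0.55 ± 0.07 on the log2 scale (edgeR adjusted p = 7.91e-05 and 0.000228). PLCB4, a scarcer phospholipase gene, rose by 0.93 ± 0.12, from 4.86 to 9.27 CPM (edgeR adjusted p = 0.000305).

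Of 10 tested genes of store-operated entry, which refills the ER from outside the cell, 4 rose and 1 fell. Over all genes tested, 17.2% rose and 17.4% fell. SARAF, which shuts this entry down, rose by 0.78 ± 0.06, from 78.0 to 133.7 CPM (edgeR adjusted p = 1.34e-05), and STIM2, a sensor of small falls in luminal calcium, by 0.40 ± 0.09 (edgeR adjusted p = 0.00663). CRACR2A, a cytosolic partner of the ORAI channels, fell by 0.57 ± 0.11 (edgeR adjusted p = 0.00238). STIM1, the main sensor, and ORAI1, the main channel, had log2 changes of -0.14 ± 0.07 and 0.02 ± 0.08 and did not pass (edgeR adjusted p = 0.150 and 0.864); these 2 were picked after their values were seen.

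Among the other pumps, 1 of 5 tested fell, near the 17.4% of all genes, and the rest were not called. The lower one was ATP2C2, a Golgi calcium pump of secretory epithelia, which fell by 0.57 ± 0.10 on the log2 scale (edgeR adjusted p = 0.00134). The plasma membrane pumps ATP2B1 and ATP2B4 had log2 changes of 0.11 ± 0.08 and -0.15 ± 0.09 (edgeR adjusted p = 0.350 and 0.235); ATP2B4 passed without untreated replicate 1 (-0.24, edgeR adjusted p = 0.0424). Of 6 tested pump regulators and counterion channels, 2 rose (33.3%, against 17.2% of all genes). CLCC1, an ER chloride channel, rose by 0.38 ± 0.07 (edgeR adjusted p = 0.00272). TMEM38B, the potassium channel TRIC-B that balances charge during calcium release, rose by 0.32 ± 0.08 (edgeR adjusted p = 0.0101), but missed the threshold without untreated replicate 2 (adjusted p = 0.0513). Its relative TMEM38A had a log2 change of -0.26 ± 0.13 (edgeR adjusted p = 0.141).

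Among other release and leak channels, 1 of 6 tested rose (16.7%, near the 17.2% of all genes). This was TMCO1, a channel that opens when the ER is overfilled, higher by 0.39 ± 0.08 (edgeR adjusted p = 0.00321). PKD2 had a log2 change of 0.24 ± 0.10 (edgeR adjusted p = 0.0723), which passed without APX2009 replicate 3 (0.33, edgeR adjusted p = 0.0168). RYR2, the cardiac ryanodine receptor, was at 0.268, 0.884 and 0.534 CPM in untreated and 9.14, 0.756 and 0.431 CPM in treated libraries. Only APX2009 replicate 1 was high. The log2 change of 2.62 ± 1.00 did not pass with all libraries (edgeR adjusted p = 0.0655) and was 0.06 without that library; it passed without APX2009 replicate 2 or 3 (3.10 and 3.13, edgeR adjusted p = 0.0339 and 0.0233).

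PLN and CASQ2, below the filter on low counts, followed the same library. PLN encodes phospholamban, the inhibitor of SERCA2 in the heart, and had 129 reads (4.83 CPM) in APX2009 replicate 1 and 0 in each of the other 5. CASQ2 encodes cardiac calsequestrin and had 105 reads (3.93 CPM) there and 0 elsewhere. These calcium genes are therefore seen in the library that holds the heart muscle transcripts and not in its 2 replicates.

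**Figure D4:**
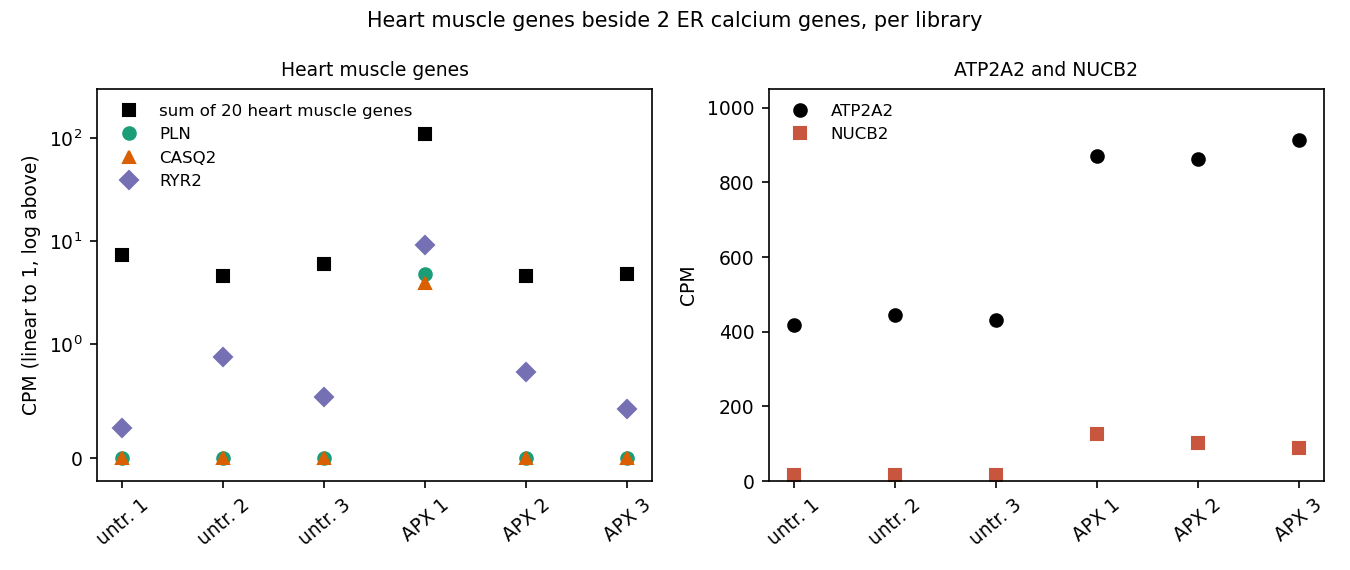
Left, CPM per library of PLN, CASQ2, RYR2 and the sum of 20 heart muscle genes, on an axis that is linear up to 1 and logarithmic above; right, ATP2A2 and NUCB2 on a linear axis from 0. The heart muscle sum is 110.0 CPM in APX2009 replicate 1 and at most 7.38 CPM elsewhere, and ATP2A2 is at 870.6, 861.7 and 912.4 CPM in the treated libraries.

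Mitochondrial uptake and ER contact genes had 3 of 16 tested higher and 1 lower. Those are 18.8% and 6.25%, against 17.2% and 17.4% of all genes, so the higher share is near that of all genes. RMDN3, which tethers ER to mitochondria, rose by 0.44 ± 0.08, and MCUR1, a regulator of the uniporter, by 0.37 ± 0.07 (edgeR adjusted p = 0.00158 and 0.00172). The pore gene MCU had a log2 change of 0.01 ± 0.07 and did not pass (edgeR adjusted p = 0.928; picked after its value was seen). Among cytosolic calcium sensors and their outputs, 2 of 17 rose and 3 fell (11.8% and 17.6%, no more than about the shares of all genes). Calmodulin transcripts from CALM2 and CALM3 fell by 0.40 ± 0.06 and 0.35 ± 0.07 (edgeR adjusted p = 0.000884 and 0.00304), and RCAN1, a calcineurin inhibitor that calcineurin signalling induces, rose by 0.38 ± 0.07 (edgeR adjusted p = 0.00251).

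**Figure D5:**
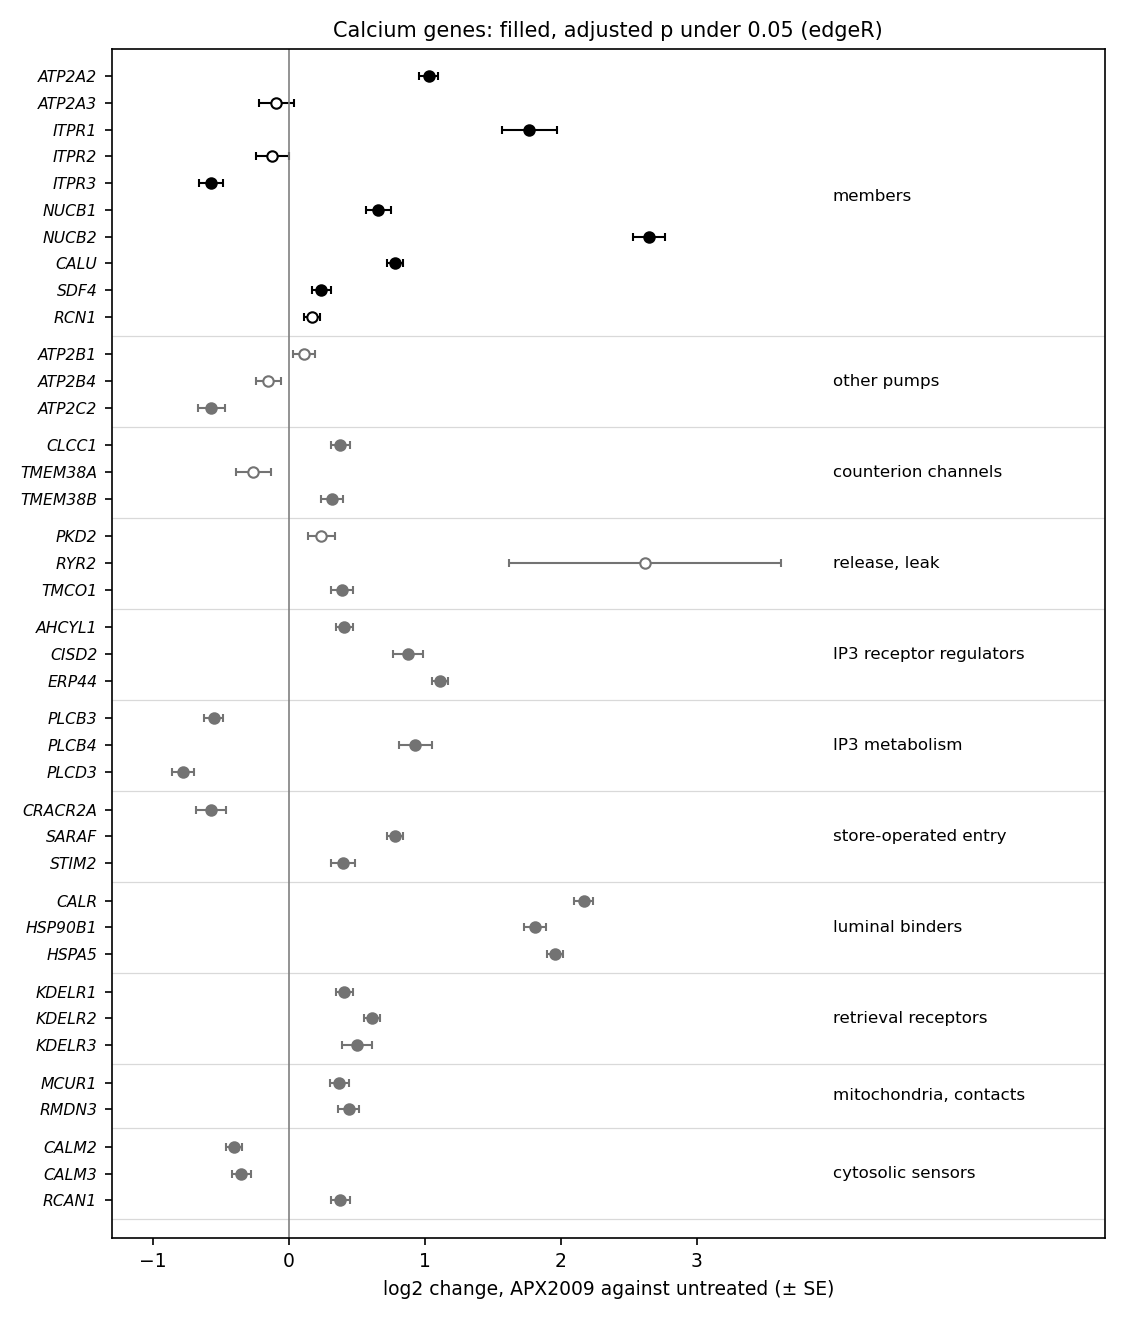
log2 change with SE for the 10 genes (black, top) and up to 3 genes with the smallest p in each of the 10 other lists (grey); filled points had an edgeR adjusted p under 0.05. NUCB2 is the farthest right of the filled points at 2.65, ahead of CALR at 2.17, and the wide bar is RYR2.

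When libraries were scaled by the ERCC total, NUCB2 alone of the 10 was called (2.81 ± 0.53), and 0.921% of all genes were. The log2 changes of the 10 were close to those with TMM (median 0.48 against 0.45), with SE from 0.48 to 0.56. The ERCC share was 0.553%, 0.48% and 0.564% in untreated and 0.315%, 0.752% and 0.734% in treated libraries. APX2009 replicate 1 was thus shifted in the opposite direction from the other treated libraries, and the closeness holds only for their average. ERCC scaling without that library was not run.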

How the data were processed

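RNA sequencing counts of 3 untreated and 3 APX2009-treated OE33 libraries were used. Raw read counts per gene, whole numbers that the authors did not normalize, were deposited with 92 ERCC rows. Per the submitters' processing notes, Trimmomatic 0.36, STAR 2.5.2b, featureCounts and Subread 1.5.2 were used on GRCh38; their order, the annotation, the strand setting and any filter: not given in the sources used here. Groups and replicate numbers came from the sample titles.

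ERCC rows entered neither library sizes nor tests. After filterByExpr and TMM scaling, the effect of treatment was fitted with edgeR 4.0.16 (quasi-likelihood F-test, R 4.3.3), with Benjamini-Hochberg adjustment over all 14773 genes tested. SE came from the F statistic. RPKM is CPM per kilobase of GENCODE 29 exons. Alternatives used limma 3.58.1 and DESeq2 1.42.0, other scalings and filters, a replicate block, a stricter threshold and leaving out each library. Named were the 10 genes, the 3 genes of each other list with the smallest p and the 5 genes most like NUCB2; exceptions are marked or stand beside a family sum, and 1 gene that the rule names is not reported here. The genes and lists were chosen with earlier results of these data known; the promoter motifs and the heart muscle list were added after values were seen. Same-numbered libraries deviated together at most weakly (r = 0.14, 0.078 and 0.006, against -0.144 to 0.115 for other pairs). They were not paired in the main fit. Libraries within a group differed by more than sampling noise (chi-square per degree of freedom from 3.06 to 30.0).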

Additional observations from a re-analysis of the deposited data

How the results depend on the processing

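Of 160 comparisons of a log2 change of the 10 genes with its value under an alternative, 143 kept direction and side of the threshold, 11 lost a call, 5 gained one and 1 turned: ATP2A3, to 0.01 without APX2009 replicate 1 (from -0.16 to 0.01 over the single-library omissions). Scaling by the ERCC total, whose share varied from 0.315% to 0.752% of counts, called 136 of all genes (129 higher and 7 lower), 1 of the 10 (NUCB2, higher) and 4 of the other calcium genes higher. These were CALR, HSPA5 and HSP90B1, also called with TMM, and RYR2, which was not; edgeR then called 0 other calcium genes lower, with 0 at an unadjusted p under 0.05 as well, against 17 called with TMM, DESeq2 or limma voom. An adjusted p under 0.01 left 3057 genes. Leaving out each library in turn gave 3503 to 5709 genes, 6 to 8 of the 10, and 23 to 32 other calcium genes higher and 16 to 18 lower. The replicate block called 5501 genes, 7 of the 10, and 30 and 17 other calcium genes; not every library correlated best with its own number. RCN1 passed with DESeq2, limma voom, total counts, a filter of 1 CPM in 3 libraries or without APX2009 replicate 1 (0.14 to 0.18). RYR2 passed with the ERCC total (3.23), no filter (2.59) and the block (1.97). ITPR1, with 44 to 79 untreated reads, had the least counting depth of the 10.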
